A study of Mus musculus with 18 samples.

Results

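Glutathione transferases conjugate reactive compounds with glutathione, and 10 genes of the family were followed here in mouse liver: Gstm1, Gstm2, Gstm3, Gstm4 and Gstm6 of the mu class, Gstt1 and Gstt2 of the theta class, Gsta3 and Gsta4 of the alpha class, and Gstp1 of the pi class. They were picked by gene symbol in the annotation of the array platform, which gave 15 probe sets for the 10 genes among 12394 genes measured with a single symbol, and no probe set with several symbols was used. Livers came from male C57BL/6J mice aged 10 to 16 weeks of 3 genotypes, with the farnesoid X receptor (FXR, encoded by Nr1h4) missing from the whole body (Whole body Fxr KO), missing from the liver (Liver Fxr KO, AFXR Cre+, floxed mice with Cre under the albumin promoter, which drives it in hepatocytes), or present (wild type, WT). Mice of each genotype received the synthetic FXR agonist GW4064 or vehicle by oral gavage, which gave 6 groups of 3 arrays and 18 arrays in all. The sample labels give 2 doses of 150 mg/kg and livers taken 2 hours after the last dose. The methods instead describe WT mice only, with a lower dose given more often, an overnight fast and another array type. They may therefore describe another experiment, and the values do not settle which schedule was used. All values are RMA expression levels on the log2 scale as deposited, so a difference of 1 is a doubling, and levels of different genes cannot be ranked because each comes from its own probes.

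The mu, theta, alpha and pi classes are soluble enzymes that differ in the substrates they prefer, and together they make up an appreciable share of the soluble protein of a hepatocyte. They take up electrophiles formed from drugs, toxins and oxidised lipids, and several of them are known targets of the stress sensor NRF2 and of the drug-sensing nuclear receptors CAR and PXR. FXR is the bile acid receptor of liver and intestine, so mice without it carry more bile acids, and in the whole-body knockout the intestine lacks the receptor as well.

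Gstm2 and Gstm3 stood higher in whole-body KO livers than in WT livers with either treatment, and Gstt2 did so with vehicle. In vehicle-treated mice, Gstm2 was 3.76-fold, Gstm3 2.90-fold and Gstt2 1.98-fold higher in whole-body KO livers than in WT livers, and Gstm2 (1.80-fold) and Gstt2 (1.92-fold) were also higher in liver KO livers. With GW4064, Gstm3 was 5.05-fold, Gstm2 2.60-fold and Gstm1 1.35-fold higher in whole-body KO livers than in WT livers. The Gstm1 difference, and that of Gstm3 with vehicle, each failed the test in 12 of 18 fits that left out 1 array. No member passed the test for GW4064 against vehicle in any genotype.

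Gstm2 and Gstm3, whose levels moved furthest, lie next to each other on mouse chromosome 3 in a run of mu-class genes (RefSeq annotation of GRCm38.p6), and their promoters are shown to let a reader compare their start regions. Each sequence runs 5′ to 3′ on the strand of the gene, from 250 bases before the start to 50 bases after it, with the bases after the start in capitals. The sequences are from RefSeq on GRCm38.p6.
Gstm2, chr3:107986371-107986670, minus strand: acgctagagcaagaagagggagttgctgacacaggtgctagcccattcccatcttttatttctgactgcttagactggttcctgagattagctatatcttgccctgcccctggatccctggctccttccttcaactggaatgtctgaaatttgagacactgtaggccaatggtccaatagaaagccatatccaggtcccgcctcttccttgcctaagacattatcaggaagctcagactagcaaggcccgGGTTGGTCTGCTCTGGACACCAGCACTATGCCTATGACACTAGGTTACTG
Gstm3, chr3:107969125-107969424, minus strand: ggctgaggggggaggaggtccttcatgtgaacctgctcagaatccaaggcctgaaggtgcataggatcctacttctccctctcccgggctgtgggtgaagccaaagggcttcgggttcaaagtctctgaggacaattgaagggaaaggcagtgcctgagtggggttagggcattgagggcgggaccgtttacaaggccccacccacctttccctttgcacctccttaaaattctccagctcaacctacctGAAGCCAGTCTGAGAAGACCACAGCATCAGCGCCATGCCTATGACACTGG
The promoters were searched on both strands for 3 motifs: the core of the antioxidant response element that NRF2 binds (TGACNNNGC), the inverted repeat that FXR binds (IR-1, with its consensus hexamers 1 base apart) and the nuclear receptor hexamer AGGTCA, which is contained in that repeat. Neither of the 2 sequences holds a match to any of the 3 in this window. Promoter entries were at hand for 8 of the 10 genes (12 starts in all), and Gsta4 and Gstt2 are named only. The antioxidant core was found in 1 of the 12 starts against 12.4% of 32851 mouse promoters of the same length, the hexamer in 1 of 12 (a Gstm1 start) against 16.3%, and the full repeat in 0 of 12 against 0.00913%. The antioxidant core match was in the promoter of Gsta3 (chr1:21240335-21240634, plus strand), beginning 121 bases before the start, shown here in capitals with the bases around it.
Gsta3, plus strand: aactcaggcaTGACATTGCatttttcttct

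The arrays were alike in level, with medians between 5.96 and 6.00. Nr1h4 ran between 3.98 and 4.69 on the knockout arrays and between 8.83 and 9.39 on the WT arrays, as the labels say. Of 6 measured hepatocyte markers, Alb was between 14.78 and 14.97 on every array, whereas Hnf4a was lower in whole-body KO than in WT livers. With vehicle, Hnf4a ran from 11.89 to 11.98 in whole-body KO livers and from 12.28 to 12.39 in WT livers. With GW4064 it ran from 11.86 to 12.27 and from 12.38 to 12.52. WT GW4064 replicate 1 and whole-body KO GW4064 replicate 3 stood apart, with the widest spread of relative expression (interquartile ranges 0.259 and 0.231). In the first of these, acute-phase genes lay a median of 1.74 above the WT vehicle mean. In the other, genes higher in male liver, a list that includes Gstp1, differed from it by a median of -2.77. Genes higher in female liver differed by 2.19 there. Yet all mice are labelled male, and Xist was as low there (5.52) as on the other arrays (up to 6.11). Of the Y-linked genes, Eif2s3y was lowest there (7.99, with 8.17 on whole-body KO vehicle replicate 1 and up to 9.32 elsewhere). Kdm5d (6.37) and Uty (6.59) were not the lowest of the arrays. WT GW4064 replicate 3 was closest to WT vehicle replicate 1 (r = 0.995 across genes within arrays) and not to its own group. All whole-body KO GW4064 arrays and liver KO GW4064 replicates 1 and 3 were likewise closest to vehicle arrays of their genotype, each to that of the same replicate number. The mean r of WT GW4064 replicate 3 with its own group was 0.9913, against 0.9907 for replicate 1. Member counts that changed without the 2 arrays that stood apart are given both ways, as are the calls of other lists with GW4064. Both are GW4064 arrays, so leaving them out changes no difference between vehicle groups, only the shared estimate of the spread.

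**Figure D1:**
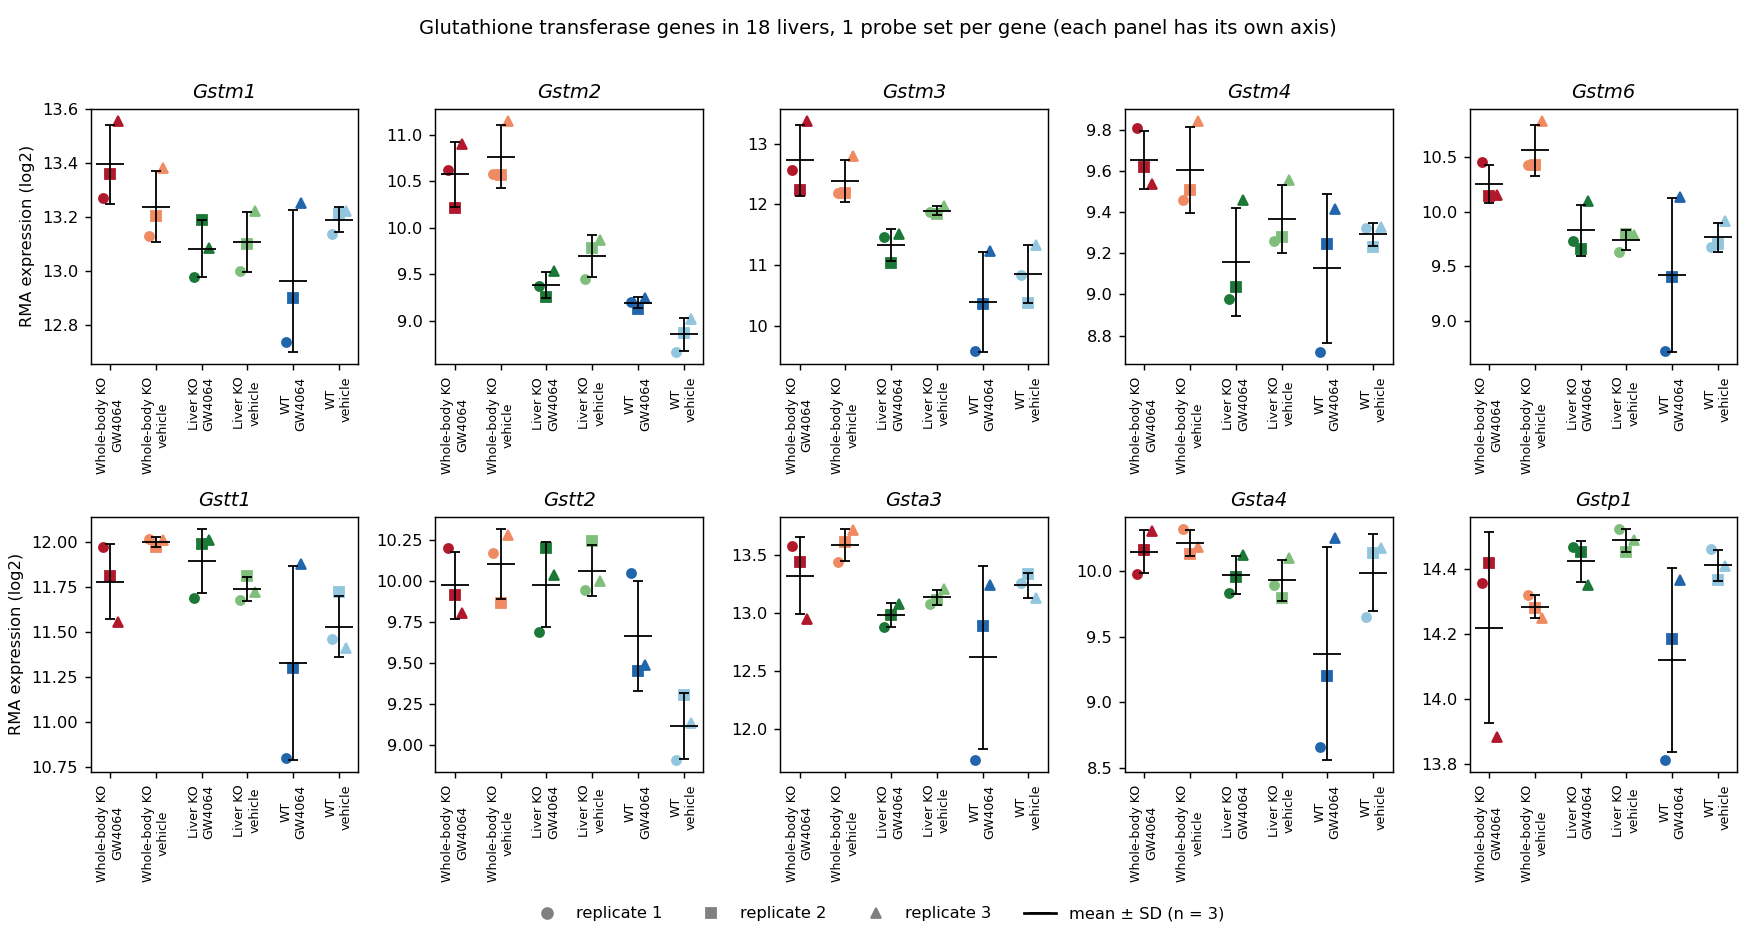
RMA expression (log2, vertical axis of each panel) of the 10 glutathione transferase genes in the 6 groups, with a point for each array and the mean ± SD of 3 arrays in black. The whole-body KO arrays lie above the WT arrays for Gstm2 and Gstm3 and, narrowly, for Gstm4 and Gstm6. WT GW4064 replicate 1 is the lowest of the 18 arrays for 8 of the 10 genes.

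The vehicle arrays gave the comparison of livers without FXR and livers with it at rest. In whole-body KO livers, 3 of the 10 members rose against WT livers (Gstm2, Gstm3 and Gstt2) and 0 fell, where 0.597% of all genes rose and 0.541% fell (limma, p adjusted over the 12394 genes after Benjamini and Hochberg and under 0.05, as in every call below). The median difference of the 10 members was 0.41 on the log2 scale, against -0.01 for all genes. The members were chosen with earlier results of these data known, so such counts and medians describe them and carry no test of the family. For 7 members the 3 whole-body KO vehicle arrays all lay above the 3 WT vehicle arrays, where 9.63% of all genes did so, and for Gstp1 they all lay below, where 10% of all genes did so.

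Gstm2, a mu-class enzyme, separated the 3 genotypes most clearly with vehicle. Its level with GW4064 was 10.62, 10.21 and 10.90 in whole-body KO livers, 9.38, 9.25 and 9.54 in liver KO livers, and 9.21, 9.13 and 9.25 in WT livers. With vehicle it was 10.58, 10.56 and 11.15 in whole-body KO livers, 9.45, 9.78 and 9.87 in liver KO livers, and 8.67, 8.88 and 9.02 in WT livers. The 6 whole-body KO arrays thus lay above all 12 other arrays, and the liver KO vehicle arrays above the WT vehicle arrays. The difference with vehicle was 1.91 ± 0.17 (SE, n = 3 each, adjusted p = 2.0e-05, limma) for whole-body KO against WT and 0.85 ± 0.17 (adjusted p = 0.026) for liver KO against WT. The direct comparison of whole-body KO with liver KO gave 1.06 ± 0.17 (2.09-fold, adjusted p = 0.013). In order of mean, whole-body KO GW4064 and whole-body KO vehicle, at the top, did not differ beyond their spread (adjusted p = 0.92), nor did the neighbours from liver KO vehicle down to WT vehicle (adjusted p from 0.44 to 0.9996), whereas the step between whole-body KO GW4064 and liver KO vehicle did (0.87 ± 0.17, adjusted p = 0.030). The whole-body KO difference from WT kept its call in all 18 fits that left out 1 array. The liver KO difference from WT lost it without WT vehicle replicate 1 or 2 or liver KO vehicle replicate 2 or 3 (adjusted p up to 0.12), and the difference between the knockouts lost it without liver KO vehicle replicate 1 or 2 or whole-body KO vehicle replicate 3 (adjusted p up to 0.12).

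Gstm3, the neighbour of Gstm2, had the widest range of the 10 genes. With GW4064 it measured 12.56, 12.24 and 13.38 in whole-body KO livers, 11.46, 11.03 and 11.50 in liver KO livers, and 9.58, 10.36 and 11.23 in WT livers. With vehicle it measured 12.18, 12.18 and 12.79 in whole-body KO livers, 11.87, 11.84 and 11.98 in liver KO livers, and 10.83, 10.38 and 11.34 in WT livers. All 6 whole-body KO arrays lay above the other 12, and with vehicle the liver KO arrays did not overlap the WT arrays. With vehicle the difference was 1.54 ± 0.35 (adjusted p = 0.040, limma) for whole-body KO against WT and 1.05 ± 0.35 (adjusted p = 0.19) for liver KO against WT. The direct comparison of whole-body KO with liver KO gave 0.49 ± 0.35 (95% interval -0.24 to 1.22), which leaves the 2 knockouts unresolved. No neighbouring groups in the order of its means differed beyond the spread (adjusted p from 0.57 to 0.9996). The call for whole-body KO against WT was lost without any of the 6 liver KO arrays, any whole-body KO vehicle array, WT vehicle replicate 1 or 2, or WT GW4064 replicate 2 (adjusted p up to 0.18). When both arrays named above were left out, a choice made after seeing the data, the adjusted p was 0.0030, and that of the liver KO difference was 0.040. Both are GW4064 arrays, so the 2 vehicle differences were unchanged and their SE fell to 0.24.

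Gstt2, a theta-class enzyme that acts on sulfate esters in rat and human, was called in both knockouts with vehicle only. Its level with GW4064 was 10.20, 9.92 and 9.81 in whole-body KO livers, 9.69, 10.20 and 10.04 in liver KO livers, and 10.05, 9.45 and 9.49 in WT livers. With vehicle it was 10.17, 9.87 and 10.28 in whole-body KO livers, 9.95, 10.24 and 10.00 in liver KO livers, and 8.91, 9.31 and 9.14 in WT livers. With vehicle every knockout array lay above every WT array, whereas with GW4064 the WT array of replicate 1 lay among the knockout arrays. The difference from WT with GW4064 was 0.31 ± 0.17 in whole-body KO livers (adjusted p = 0.35, limma) and 0.31 ± 0.17 in liver KO livers (adjusted p = 0.45). The difference with vehicle was 0.99 ± 0.17 (adjusted p = 0.0088, limma) for whole-body KO and 0.94 ± 0.17 (adjusted p = 0.012) for liver KO against WT, and that between the knockouts was 0.04 ± 0.17 (95% interval -0.32 to 0.41). The whole-body KO call was lost without whole-body KO vehicle replicate 3 (adjusted p = 0.055), and the liver KO call without WT vehicle replicate 1 or liver KO vehicle replicate 2 (adjusted p up to 0.085). Gstt2 lies on chromosome 10, as Nr1h4 does. Of its 10 nearest measured neighbours, 0 passed in either knockout against WT with vehicle. Of all genes, 0.597% rose and 0.541% fell in whole-body KO livers, and 0.387% rose and 0.492% fell in liver KO livers. At such shares 0 of 10 says little, and the part of the place of Gstt2 on that chromosome was not tested.

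Of liver KO against WT with vehicle, 2 of the 10 members (Gstm2 and Gstt2) rose and 0 fell, where 0.387% of all genes rose and 0.492% fell. The members' median was 0.08 against -0.01 for all genes, and the liver KO arrays lay wholly above the WT arrays for 3 members (Gstm2, Gstm3 and Gstt2), where 9.8% of all genes did so. Of whole-body KO against liver KO with vehicle, 1 of 10 members (Gstm2) rose and 0 fell, where 0.42% of all genes rose and 0.258% fell. Here the members' median was 0.27 against -0.01 for all genes, and 6 members had whole-body KO arrays wholly above the liver KO arrays, where 11% of all genes did so, and Gstp1 had them wholly below, where 10.4% did so. With the 2 arrays that stood apart left out, 4 members rose in whole-body KO against WT livers (Gstm6 in addition), where 2.15% of all genes were called. In liver KO against WT livers 3 rose (Gstm3 in addition), where 1.76% of all genes were called. In whole-body KO against liver KO livers 3 rose (Gstm6 and Gsta3 in addition), where 1.08% were called. Those 2 are GW4064 arrays, so these vehicle differences were unchanged. The added members had a smaller SE, as Gstm6 did (0.17 instead of 0.24). The methods' t-test, by its own thresholds of p under 0.05 without adjustment and 1.5 fold, called 3 members in liver KO livers, where 1.13% of all genes were called, and 4 in whole-body KO livers, where 1.4% were. After adjustment it called 0 members in these 3 comparisons, where at most 0.0403% of all genes passed. The whole-body and liver knockouts were set against the same WT arrays, so their differences from WT share that group's error.

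The other members moved less with vehicle. Gstm6 was 0.80 ± 0.24 higher in whole-body KO than in WT livers (adjusted p = 0.14, limma), with levels of 10.43, 10.43 and 10.83 in whole-body KO livers and 9.67, 9.70 and 9.92 in WT livers, and did not pass the test with all 18 arrays. Its difference in liver KO livers was -0.03 ± 0.24. Gstm6 did pass the test of any difference among the 6 groups (adjusted p = 0.046), as did Gstm2 (2.1e-05), Gstm3 (0.0032) and Gstt2 (0.010), which makes 4 of 10 members where 6.08% of all genes passed. The count was 2 without WT vehicle replicate 1 and 8 without WT GW4064 replicate 3. Gstt1, which conjugates small halogenated compounds such as dichloromethane, was 0.47 ± 0.19 higher in whole-body KO livers (adjusted p = 0.28). Gstm1 and Gstm4 differed by 0.05 ± 0.12 and 0.31 ± 0.16 in whole-body KO livers and did not pass. For Gsta3, which in the mouse takes up the epoxide of aflatoxin B1, the whole-body KO difference was 0.35 ± 0.26 and the liver KO difference -0.10 ± 0.26. For Gsta4, which conjugates the lipid peroxidation product 4-hydroxynonenal, they were 0.22 ± 0.26 and -0.06 ± 0.26. Gstp1, the pi-class enzyme that is abundant in male mouse liver, was the only member whose mean was lower in whole-body KO than in WT livers (-0.13 ± 0.13, adjusted p = 0.72).

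**Figure D2:**
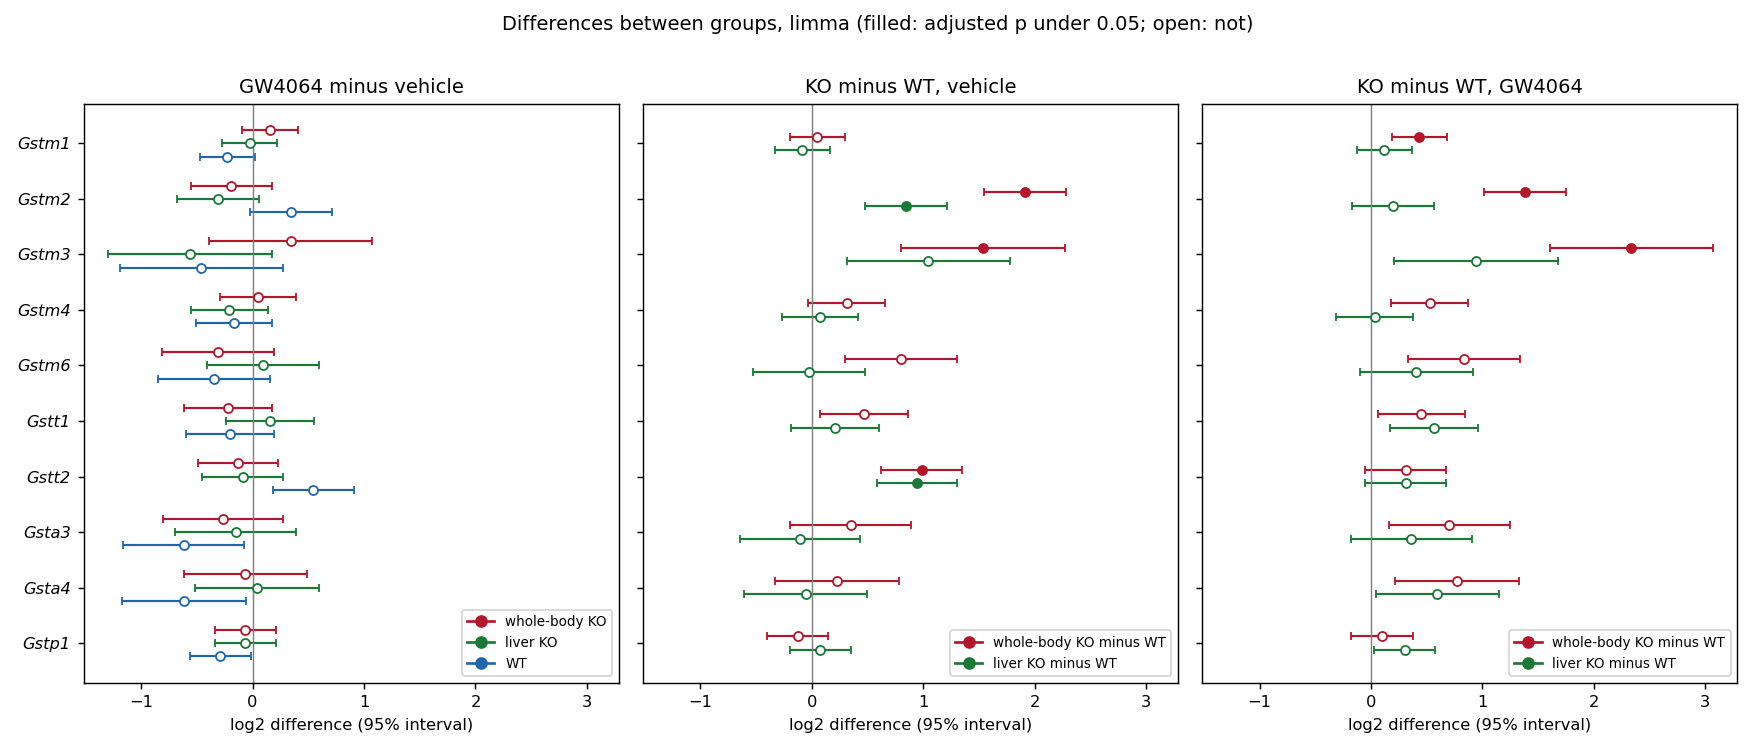
Log2 differences of the 10 genes with 95% intervals from limma (horizontal axis), for GW4064 against vehicle in each genotype and for each knockout against WT with vehicle and with GW4064. Filled points passed an adjusted p of 0.05, and the 8 filled points belong to Gstm1, Gstm2, Gstm3 and Gstt2 in the knockout comparisons.

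With GW4064, 3 of the 10 members (Gstm1, Gstm2 and Gstm3) rose in whole-body KO against WT livers and 0 fell, where 2.63% of all genes rose and 2.01% fell. The median of the 10 was 0.61 against -0.02 for all genes, and all 10 means were higher. For 5 members the whole-body KO arrays lay wholly above the WT arrays, where 8.4% of all genes did so. Gstm3 differed by 2.34 ± 0.35 (adjusted p = 0.00096, limma) and Gstm2 by 1.38 ± 0.17 (adjusted p = 0.00025), and both calls held in all 18 fits that left out 1 array. Gstm1, a major mu-class enzyme of mouse liver, measured 13.27, 13.36 and 13.56 in whole-body KO livers and 12.74, 12.90 and 13.25 in WT livers, which just do not overlap. Its difference was 0.43 ± 0.12 (adjusted p = 0.042) with all arrays and 0.24 (adjusted p = 0.47) without the 2 arrays that stood apart. The call was also lost in 12 of the 18 fits without 1 array, namely any WT vehicle array, WT GW4064 replicate 1 or 2, liver KO vehicle replicate 2 or 3, liver KO GW4064 replicate 3, whole-body KO vehicle replicate 2 or any whole-body KO GW4064 array (adjusted p up to 0.22). Without the 2 arrays, Gstm3 differed by 1.60 (adjusted p = 0.011) and Gstm2 by 1.22 (adjusted p = 0.0046), and 2 of 10 members were called where 1.61% of all genes were.

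Several members lay close to the threshold in this comparison. Gstm6 differed by 0.83 ± 0.24 (adjusted p = 0.056, limma), Gstm4 by 0.53 ± 0.16 (adjusted p = 0.079), Gsta4 by 0.77 ± 0.26 and Gsta3 by 0.70 ± 0.26. At an unadjusted p under 0.05, 8 of 10 members were higher, where 8.82% of all genes were. The size of these differences depended on which arrays were kept. Without WT GW4064 replicate 3, 8 of 10 members were called in whole-body KO against WT livers (all but Gstt2 and Gstp1), where 6.35% of all genes were called in either direction. Without the 2 arrays that stood apart, the differences were smaller and did not pass in limma. They were 0.53 for Gstm6 (adjusted p = 0.28), 0.38 for Gstm4 (0.33), 0.34 for Gsta4 (0.67) and 0.44 for Gsta3 (0.094).

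Markers of other cells moved in the same comparison. Of 10 measured markers of stellate cells and fibroblasts, 6 were higher in whole-body KO than in WT livers with GW4064, where 2.63% of all genes were, led by Col3a1 (2.86) and Lum (1.54), with a median of 1.01 over the list. Without the 2 arrays that stood apart, 5 of the 10 were called and the median was 0.65. The list's median level per array, relative to the WT vehicle mean, was 0.44 to 0.77 in whole-body KO GW4064 livers and -0.88 to -0.20 in WT GW4064 livers. With vehicle, 1 of the 10 (the receptor gene Pdgfrb, 0.72) was higher in whole-body KO livers, as 0.597% of all genes were, and without those arrays 3 were. With all arrays the list's median ran from 0.21 to 0.48 in whole-body KO vehicle livers, against -0.12 to 0.21 in WT vehicle livers. Of 10 Kupffer cell and macrophage markers, 0 passed in either knockout against WT with vehicle, with 10 of 10 means higher in whole-body KO livers (median 0.33) and 9 of 10 in liver KO livers (median 0.29). Their median level per array was 0.07 to 0.60 in whole-body KO and 0.24 to 0.38 in liver KO livers, against -0.10 to 0.15 in WT livers. Of 12 endothelial markers, 1 (Lyve1, 1.24) was called in whole-body KO against WT livers with GW4064 and 0 with vehicle, where 11 of 12 means were higher (median 0.22), and in WT livers all 12 means were lower with GW4064 than with vehicle (median -0.39, 0 called). The endothelial count without the 2 arrays was 0 with GW4064 and 1 with vehicle. Of 17 pericentral hepatocyte genes, 14 means were higher in whole-body KO than in WT livers with vehicle (median 0.25), and 1, Rhbg (0.90), was called, or 2 without the 2 arrays. Acute-phase genes ran from -0.07 to 0.28 in whole-body KO GW4064 livers, against 0.23 to 1.74 in WT GW4064 livers. Since these are whole livers, fewer cells of a type and less RNA per cell cannot be told apart, and the part of these lists in the members' differences was not tested.

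Of liver KO against WT with GW4064, 0 of 10 members passed the test in limma, where 0.339% of all genes rose and 0.718% fell, and all 10 means were higher (median 0.34 against -0.00 for all genes). At an unadjusted p under 0.05, 4 members were higher and 0 lower, where 6.57% of all genes were higher, and the methods' t-test after adjustment called 0, where 0.0403% of all genes passed. Gstm3 differed by 0.94 ± 0.35 (adjusted p = 0.22), Gsta4 by 0.60 ± 0.26 (adjusted p = 0.32), Gstt1 by 0.57 ± 0.19 (adjusted p = 0.16) and Gstp1 by 0.30 ± 0.13 (adjusted p = 0.31). Gstm2, which had separated liver KO from WT livers with vehicle, differed by 0.19 ± 0.17 with GW4064 (adjusted p = 0.69), and was the 1 member whose liver KO arrays lay wholly above the WT arrays, where 8.63% of all genes did so. Without WT GW4064 replicate 3, Gsta4 (1.04), Gstt1 (0.84), Gstm3 (1.36) and Gstm6 (0.77) passed the test, where 3.37% of all genes did. The other 17 fits that left out 1 array called 0 members. Without the 2 arrays that stood apart, 0 members were called, where 0.621% of all genes were, and the members' median was 0.17. There Gsta4 differed by 0.24, Gstt1 by 0.31, Gstm3 by 0.54 and Gstm6 by 0.06.

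No member passed the test for GW4064 against vehicle. In WT livers, 0 of 10 members passed in limma, where 0.0968% of all genes rose and 0.0968% fell. The median of the 10 was -0.26 against -0.00 for all genes. At an unadjusted p under 0.05, 1 member was higher and 3 were lower, where 6.17% of all genes were higher and 6.45% lower, and the methods' t-test after adjustment called 0. Gsta3 had the largest difference (-0.62 ± 0.26, adjusted p = 0.32), with levels of 11.73, 12.89 and 13.24 with GW4064 and 13.25, 13.33 and 13.12 with vehicle. Its GW4064 arrays reached from far below the vehicle arrays into their range. Gsta4, shown here after its values were seen, measured 8.66, 9.20 and 10.25 with GW4064 and 9.65, 10.13 and 10.17 with vehicle (-0.61 ± 0.26, adjusted p = 0.34).

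The WT livers given GW4064 differed widely among themselves. For Gstm1, Gstm3, Gstm4, Gstm6, Gstt1, Gsta3, Gsta4 and Gstp1, replicate 1 had the lowest and replicate 3 the highest of the 3 levels. Over the 10 genes the median difference from the WT vehicle mean was -0.66 in replicate 1, -0.26 in replicate 2 and 0.31 in replicate 3, and the same arrays had acute-phase medians of 1.74, 1.19 and 0.23. Without replicate 3, Gsta4 was called lower with GW4064 (-1.05 ± 0.17, adjusted p = 0.0036, limma), where 2.16% of all genes were called in either direction. Gsta3 (-0.93 ± 0.24, adjusted p = 0.052) and Gstm6 (-0.71 ± 0.18, adjusted p = 0.057) came close. Leaving out the replicate with the highest levels lowers the group's means for these genes. The other 17 fits that left out 1 array called 0 members here. Without the 2 arrays that stood apart, 0 members were called, where 0.0242% of all genes were, and the median of the 10 was -0.02. The part of the acute-phase genes in these levels was not tested.

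**Figure D3:**
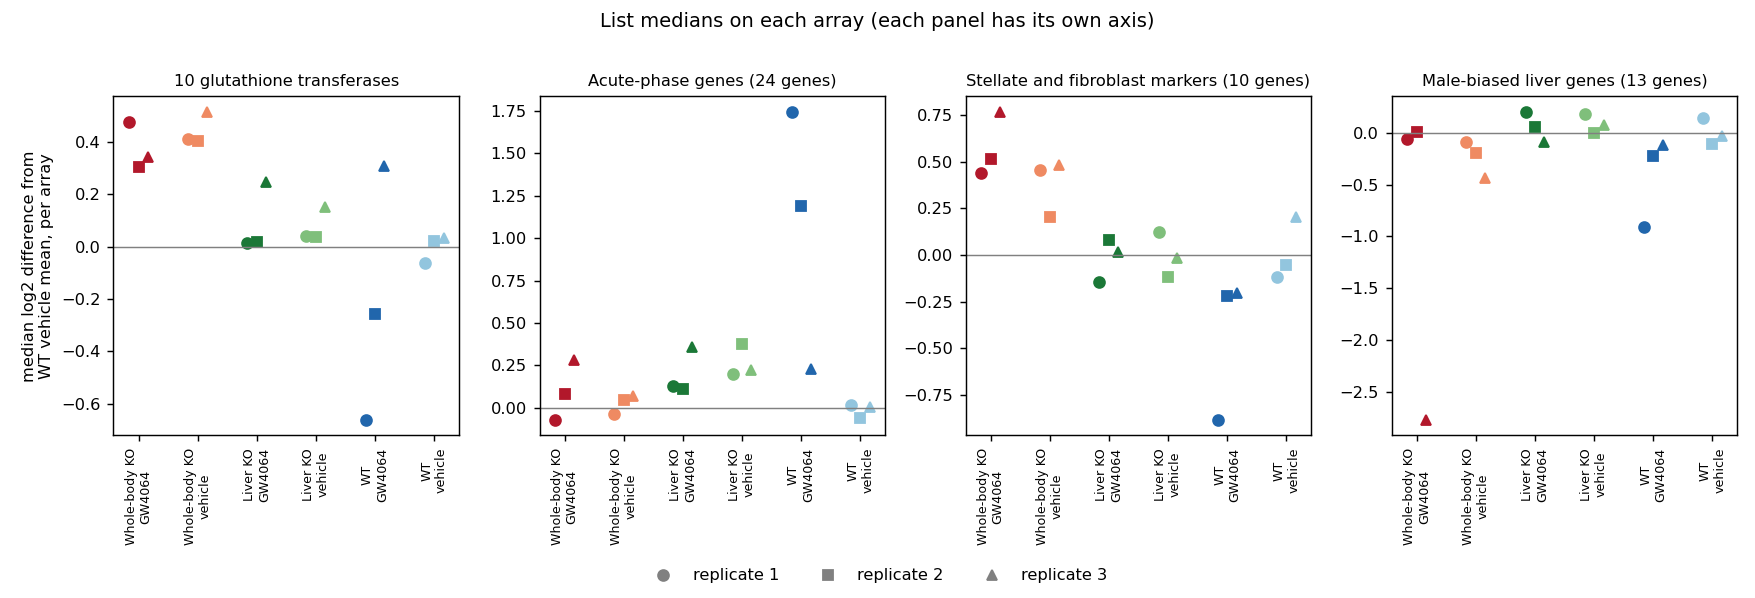
Median log2 difference of 4 gene lists from the WT vehicle mean on each array (vertical axes differ between panels), by group and replicate. The 10 glutathione transferases run from -0.66 to 0.31 among the WT GW4064 arrays, on which acute-phase genes run from 0.23 to 1.74.

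Gstt2 and Gstm2 went the other way in WT livers. Gstt2 was 0.55 ± 0.17 higher with GW4064 (unadjusted p = 0.0055, adjusted p = 0.21 in limma) and Gstm2 was 0.34 ± 0.17 higher (adjusted p = 0.44), and for both all 3 GW4064 arrays lay above all 3 vehicle arrays, where 7.06% of all genes did so. Neither passed the test. WT GW4064 replicate 1, the lowest of all arrays for 8 other members, had the highest Gstt2 level of its group (10.05).

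In liver KO livers, 0 of 10 members passed, where 0% of all genes did, the median was -0.08, and at an unadjusted p under 0.05 no member was higher or lower, where 2.58% of all genes were higher and 2.44% lower. The largest difference was that of Gstm3 (-0.56 ± 0.35, adjusted p = 0.9996, limma), whose GW4064 arrays (11.46, 11.03 and 11.50) lay wholly below its vehicle arrays (11.87, 11.84 and 11.98), where 6.13% of all genes did so. In whole-body KO livers, 0 of 10 members passed, where 0% of all genes did, the median was -0.10, and again no member reached an unadjusted p under 0.05, where 2.88% of all genes were higher and 3.37% lower. Gstm3 again had the largest difference (0.34 ± 0.35, adjusted p = 0.93), with its levels overlapping. The methods' t-test after adjustment called 0 members in either knockout.

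Whether the GW4064 effect itself differed between genotypes was tested directly, and 0 of 10 members passed for either knockout against WT, where 0% of all genes did. For Gstt2 the effect was -0.68 ± 0.24 in whole-body KO livers relative to WT livers (unadjusted p = 0.013, adjusted p = 0.48, limma) and -0.63 ± 0.24 in liver KO livers (adjusted p = 0.59). For Gstm2 these values were -0.53 ± 0.25 (adjusted p = 0.60) and -0.65 ± 0.25 (adjusted p = 0.59), and for Gsta4 0.55 ± 0.37 (adjusted p = 0.72) and 0.65 ± 0.37 (adjusted p = 0.74). At an unadjusted p under 0.05, 1 member was higher and 2 were lower for whole-body KO, where 3.77% of all genes were higher and 4.44% lower. For liver KO, 0 were higher and 2 lower, where 3.59% and 3.87% of all genes were.

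Genes with several probe sets allowed a check of each difference on other probes. Gstm1 has 4 probe sets, Gstm3 and Gsta3 have 2 each, and the probe set with the highest mean stands for the gene above. The x_at and s_at probe sets of Gstm1 and Gstm3 can match more than 1 transcript, so signal from near-identical mu-class genes may be shared among them, and the same holds for Gstp1 and its close copy Gstp2, which no probe set names. When all 20393 probe sets with 1 symbol were tested, the 4 Gstm1 probe sets differed by 0.43 to 0.51 in whole-body KO against WT livers with GW4064, and 3 of the 4 passed (limma), where 3.93% of all probe sets did. The other Gstm3 probe set, which has neither suffix, differed by 2.68 ± 0.41 with GW4064 (adjusted p = 0.0012) and by 1.51 ± 0.41 with vehicle (adjusted p = 0.10, where 0.951% of all probe sets passed), against 2.34 and 1.54 for the probe set used. In liver KO against WT livers with vehicle its difference was 0.64 ± 0.41 (adjusted p = 0.58, where 0.78% of all probe sets passed), against 1.05 for the probe set used, and the arrays overlapped. The second Gsta3 probe set did not pass in any comparison either.

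**Figure D4:**
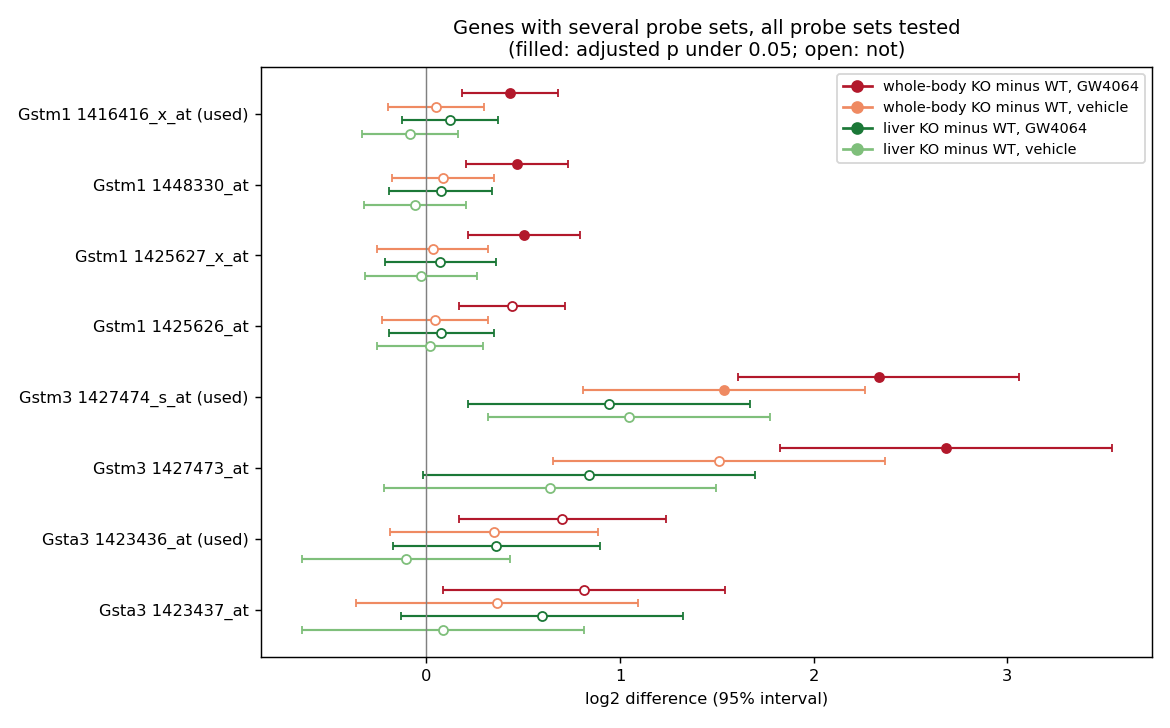
Log2 differences with 95% intervals (horizontal axis) of every probe set of Gstm1, Gstm3 and Gsta3, for each knockout against WT with GW4064 and with vehicle, from a fit of all 20393 probe sets. The 4 Gstm1 probe sets lie between 0.43 and 0.51 in whole-body KO against WT livers with GW4064, and both Gstm3 probe sets lie above 2 there.

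Beyond the 10 genes, 15 of 20 listed relatives were measured, among them other mu, alpha, theta, pi, kappa, omega and zeta enzymes, the microsomal enzymes and proteins that share the fold. Gstp3, a pi-class relative, rose in whole-body KO livers with vehicle against WT livers (0.77 ± 0.15, adjusted p = 0.016, limma) and against liver KO livers (0.77 ± 0.15, adjusted p = 0.035), and with GW4064 against WT livers (0.70 ± 0.15, adjusted p = 0.013). It was the 1 relative of 15 that passed with vehicle in these comparisons, where 0.597% and 0.42% of all genes rose. With GW4064, Gsta2, an alpha-class enzyme, differed by 1.78 ± 0.48 (adjusted p = 0.045) and Gstm7 by 0.69 ± 0.17 (adjusted p = 0.032), which makes 3 of 15 higher and 0 lower, where 2.63% of all genes rose and 2.01% fell. Gsta2 measured 11.10, 10.89 and 12.05 in whole-body KO livers and 8.08, 9.59 and 11.03 in WT livers, and these overlap. Without the 2 arrays that stood apart, none of these GW4064 calls held (adjusted p = 0.46 for Gsta2, 0.29 for Gstm7 and 0.10 for Gstp3), whereas Gstp3 with vehicle kept an adjusted p of 0.016. The median over the 15 in whole-body KO against WT livers was 0.30 with GW4064 and 0.12 with vehicle, and no relative passed in liver KO against WT livers. Without those arrays, Gsto1, an omega-class enzyme, was lower with vehicle in whole-body KO (-0.49, adjusted p = 0.014) and liver KO livers (-0.42, adjusted p = 0.037) than in WT livers, and the microsomal Mgst3 was lower in liver KO livers (-0.83, adjusted p = 0.046), in fits where 2.15% and 1.76% of all genes were called for whole-body KO and liver KO.

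**Figure D5:**
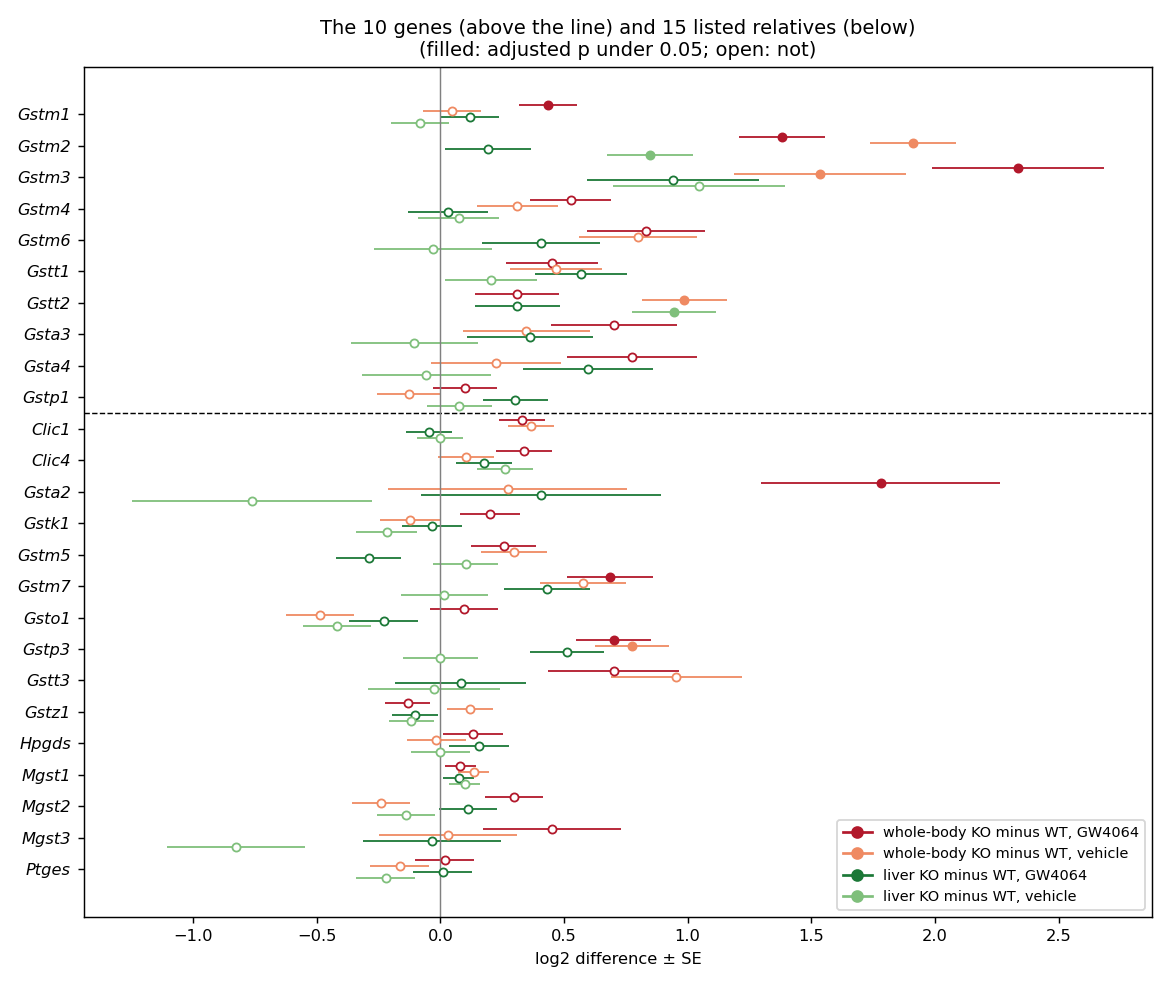
Log2 differences ± SE (horizontal axis) of the 10 genes above the dashed line and of 15 relatives below it, for each knockout against WT with GW4064 and with vehicle. Filled points passed an adjusted p of 0.05, and among the relatives these are Gsta2, Gstm7 and Gstp3, all in whole-body KO livers.

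Few of the enzymes that supply and recycle glutathione passed. Of 25 measured, 0 passed in whole-body KO against WT livers with vehicle, and 2 fell in liver KO livers, where 0.492% of all genes fell: Cth, which makes cysteine (-0.93 ± 0.19, adjusted p = 0.023, limma), and Lap3, an aminopeptidase (-0.35 ± 0.08, adjusted p = 0.047). With GW4064, 2 rose in whole-body KO livers, where 2.63% of all genes rose: Ggct, which breaks down glutamyl peptides (0.83 ± 0.23, adjusted p = 0.047), and Gpx3, a secreted glutathione peroxidase (0.54 ± 0.15, adjusted p = 0.043). The list medians were 0.07 in whole-body KO livers with GW4064 and -0.04 in liver KO livers with vehicle. Without the 2 arrays that stood apart, neither GW4064 call held (adjusted p = 0.42 for Ggct and 0.086 for Gpx3) and both vehicle calls did.

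Of 19 measured genes of the NRF2 response, 0 passed in either knockout against WT with vehicle. In whole-body KO against WT livers with GW4064, 4 rose, where 2.63% of all genes rose and 2.01% fell, namely Pgd of the pentose phosphate pathway (1.11 ± 0.19, adjusted p = 0.0024, limma), Ugdh, which makes UDP-glucuronate (0.89 ± 0.13, adjusted p = 0.00095), the epoxide hydrolase Ephx1 (0.69 ± 0.14, adjusted p = 0.0067) and the transketolase Tkt (0.58 ± 0.15, adjusted p = 0.032). In the same comparison 1 fell, the oxidative stress gene Osgin1 (-1.30 ± 0.29, adjusted p = 0.015), and the list's median was 0.28. Without the 2 arrays that stood apart, Pgd (0.95, adjusted p = 0.047) and Ugdh (0.72, adjusted p = 0.022) passed, Ephx1 (0.42), Tkt (0.46) and Osgin1 (-1.02) did not, and the median was 0.06. The quinone reductase Nqo1 was lower in liver KO than in WT livers with GW4064 (-0.90 ± 0.20, adjusted p = 0.040), the only gene of the list to pass there, where 0.718% of all genes fell. Of 13 measured genes of the CAR and PXR response, 1 fell in whole-body KO livers with vehicle, Alas1, the first enzyme of haem synthesis, both against WT (-0.91 ± 0.21, adjusted p = 0.038, where 0.541% of all genes fell) and against liver KO livers (-1.44 ± 0.21, adjusted p = 0.0067, where 0.258% fell). Cyp2c55, a cytochrome P450, rose in whole-body KO against WT livers with GW4064 (2.18 ± 0.58, adjusted p = 0.039), but not without the 2 arrays that stood apart (0.76, adjusted p = 0.46).

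The genes most like the 3 members called most often were found by Pearson's r over the 18 arrays, leaving out glutathione transferases. The arrays share the 6 groups, so these values describe how levels ran across genotypes and carry no test. Gstm2 was most like Prdx3, a mitochondrial peroxidase (r = 0.906), Fmo1, a flavin monooxygenase (0.898), and Ctnnbl1, a splicing protein (0.884). Gstm3 was also most like Prdx3 (0.939), followed by the collagen gene Col3a1 (0.896) and the dystrophin gene Dmd (0.894). Gstt2 was most like Tmem223 (0.891), Sumo3 (0.862) and Tmem192 (0.857). Among the members, Gstm2 and Gstm3 had r = 0.855 over the 18 arrays and Gstm4 and Gstm6 0.871, whereas Gstp1 and Gstm2 had -0.257.

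In the mu-class run on chromosome 3 (RefSeq order of GRCm38.p6), Gstm2 and Gstm3 passed in whole-body KO against WT livers with vehicle, whereas their neighbours Gstm1 (0.05, adjusted p = 0.90, limma), Gstm4 (0.31, adjusted p = 0.44), Gstm5 (0.30, adjusted p = 0.34), Gstm6 (0.80, adjusted p = 0.14) and Gstm7 (0.58, adjusted p = 0.14) did not. Of the 10 nearest measured genes of each member, 0 of those outside the family passed with vehicle in either knockout against WT. Of all genes, 0.597% rose and 0.541% fell in whole-body KO livers, and 0.387% rose and 0.492% fell in liver KO livers, so the neighbours' count was near that of all genes.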

How the data were processed

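Liver RNA was measured on 18 arrays, 3 per group. The authors processed the arrays with RMA (named in the submitters' processing notes, version not given in the sources used here) and deposited log2 values per probe set, which were used as they stand. RMA normalizes the arrays together, so values are relative within the set, and no detection call comes with them. Probe set identifiers are of the 3′ expression array type, not of the Gene ST type that the methods give, and genes were named from the platform annotation: 20393 of 22690 probe sets have 1 symbol, 691 several and 1606 none here. All 15 members' probe sets matched RefSeq by gene identifier.

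Each gene was represented by its probe set with the highest mean. Tests used limma 3.58.1 (lmFit and eBayes) in R 4.3.3, with 6 group means, 12 residual degrees of freedom, two-sided p-values and Benjamini-Hochberg adjustment over 12394 genes at 0.05. The script was tested on simulated data. The methods give n = 3 for WT mice, which may be those of another experiment, and the labels do not say whether the arrays of each knockout group come from separate animals. The p-values there, and in WT livers if the methods describe other mice, measure the spread between arrays, which may be technical. The members, lists and tests were chosen with earlier results of these data known. All 10 members are named, and of each other list up to 4 genes past the threshold, largest change first. Per-array values are given for members past the threshold and for the largest difference in 5 comparisons. Other values per array were added after they were seen. Other lists covered acute-phase, sex-biased, zonal and FXR response genes and markers of 7 cell types, and only lists bearing on a result are described. Alternatives are given in the closing section. Figures were drawn with matplotlib 3.10.9 in Python 3.11.15.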

Additional observations from a re-analysis of the deposited data

How the results depend on the processing

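In limma, the number of members called stayed at 0 for GW4064 against vehicle in liver KO and whole-body KO livers and for both differences of GW4064 effects, under every alternative run. With only the compared groups fitted, 3 members were called for whole-body KO against liver KO with vehicle (Gstm2, Gstm6, Gsta3) and 1 for whole-body KO against WT with GW4064 (Gstm2). Array weights gave 2 for whole-body KO against liver KO (Gstm2, Gstm6), and the fit without the 2 arrays that stood apart, chosen after seeing the data, gave 3. The methods' t-test after adjustment called 0 members in every comparison, and by its own thresholds it called 3 in liver KO and 4 in whole-body KO against WT with vehicle. Leaving out 1 array moved the counts from 0 to 1 for GW4064 in WT, from 0 to 2 for liver KO against WT and whole-body KO against liver KO with vehicle, from 1 to 4 for whole-body KO against WT with vehicle, from 0 to 4 for liver KO and from 2 to 8 for whole-body KO against WT with GW4064, and from 2 to 8 for any difference among the groups. Leaving out WT GW4064 replicate 3 gave the highest counts in WT, with GW4064 and for any difference, and leaving out WT vehicle replicate 1 the lowest for any difference. The lowest count of liver KO against WT with vehicle came without WT vehicle replicate 1 or liver KO vehicle replicate 2. That of whole-body KO against WT with vehicle came without whole-body KO vehicle replicate 3. For whole-body KO against liver KO, the lowest came without that array or liver KO vehicle replicate 1 or 2. Its highest came without WT GW4064 replicate 1 or 3. The replicate number as a block gave 5 members for whole-body KO against WT with GW4064 (Gstm1, Gstm2, Gstm3, Gstm4, Gstm6) and changed no other count by over 1.5 times. Whether the numbers pair the arrays is not settled. Same-numbered arrays of different groups deviated together with r over 0.1 in 13 of 45 pairs (from -0.23 to 0.34). Their mean r was 0.04, against -0.02 for arrays of other numbers. The Gstm3 call in whole-body KO against WT livers with vehicle was lost with a trended and robust prior (adjusted p = 0.11) and with the mean of its probe sets (0.073), and that with GW4064 with the compared groups alone (0.088). No call reversed its direction. The cause of these shifts was not tested. With 3 arrays per group, differences of Gsta3 and Gsta4 near 0.6 were not resolved at an SE of 0.26.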
